A study of Mus musculus with 14 samples.

Results

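*Alx1* and *Alx4* encode paired-class homeodomain transcription factors, and the chromatin contacts of their promoters were examined in cranial neural crest cells (CNCCs). The promoters were found as the captured HindIII fragments (baits) that hold a transcription start site (TSS) of *Alx1* or *Alx4* in the GENCODE vM21 annotation, and 2 of the 22171 baits in the deposited tables met that rule, 1 for each gene. CNCCs are the mesenchymal cells that migrate from the dorsal neural tube into the face and pharyngeal arches and build its bone, cartilage and connective tissue. Alx genes are known for their activity in the mesenchyme of the frontonasal region, and their loss in mice or humans is known to disturb the formation of the midface. Promoters are often brought close to distal enhancers by chromatin folding, and super-enhancers (SEs) are clusters of enhancers with high H3K27 acetylation.

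Promoter capture Hi-C (PCHi-C) enriches a library of ligated, crosslinked restriction fragments for those that contain a promoter. It was measured in 14 libraries of mouse CNCCs, 2 for each of 7 conditions. Wild-type cells came from Wnt1::Cre;ROSA RFP embryos and were sorted for RFP, which limits them to the lineage of cells that had used the *Wnt1* promoter, active in the dorsal neural tube before crest cells leave it. At E10.5 they were taken from 4 regions, which are the FNP (frontonasal process), Mx and Md (the upper and lower jaw parts of the first pharyngeal arch) and PA2 (the second arch), and at E12.5 and E14.5 from the pinna, with cells of several embryos pooled. The knockout cells were GFP-positive cells of PA2 from E10.5 Hoxa2EGFP/EGFP embryos, which lack *Hoxa2*, a homeobox gene that sets second-arch identity. These were sorted on another reporter than the wild-type cells, so reporter and genotype cannot be told apart. The measurement reads contacts and no RNA, so the labelled tissue could not be checked against marker expression.

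Each table lists pairs of fragments with a CHiCAGO score, which rises with the evidence that a pair was read more often than expected for its distance, and lists only pairs scoring 5 or more. A pair that a library did not list was given 0, which is a floor and not a measured absence. The number of listed pairs on the same chromosome stood in for depth, since read counts were not at hand. It was 139707 and 161941 in FNP, 151455 and 157277 in Mx, 173477 and 176770 in Md, 140559 and 145035 in PA2, 113670 and 120854 in knockout PA2, 134063 and 186248 in E12.5 pinna, and 145549 and 182088 in E14.5 pinna. FNP thus did not have the longest lists, and knockout PA2 had the shortest. Pairs between chromosomes made up 46.5% of Md replicate 1 and 62.7% of E12.5 pinna replicate 2, against 2.64% to 5.61% in the other 12 libraries. The file names of these same libraries say that they were merged. How they were merged was not stated in the sources used here. Whether either shares reads with the other replicate of its condition is therefore not known, and each was counted as a separate library. Between-chromosome pairs entered only the totals of listed pairs and partners in the next paragraph.

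The *Alx1* bait (gene ENSMUSG00000036602.14, minus strand) is the fragment chr10:103026355-103030016 of GRCm38/mm10, 3662 bp long, with 5 TSSs between 103028627 and 103029116. The *Alx4* bait (gene ENSMUSG00000040310.12, plus strand) is chr2:93637427-93643377, 5951 bp long, with TSSs at 93642384 and 93642388. Over the 14 libraries *Alx1* had 147 listed pairs with 86 partner fragments, of which 39 lay within 1 Mb, and *Alx4* had 314 listed pairs with 95 partners, of which 68 lay within 1 Mb. These totals include 25 *Alx1* and 20 *Alx4* partners on other chromosomes, 24 and 19 of them from Md replicate 1 or E12.5 pinna replicate 2 and none listed in more than 1 library. *Alx1* partners within 1 Mb had a median distance of 148 kb, with 17 upstream and 22 downstream of the gene, and *Alx4* partners had a median distance of 120 kb, with 48 upstream and 20 downstream. Of those partners, 20 for *Alx1* and 23 for *Alx4* were listed in 1 library only.

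The fragments on which the results turn are shown by 150 bases on the plus strand of GRCm38 from the HindIII site at their left end, which is in capitals. HindIII cuts behind the site's first base, so the first base printed belongs to the neighbouring fragment. The set holds both baits, the SE fragment with the highest *Alx1* score, an SE fragment listed with *Alx1* in FNP only, the SE fragment next to *Alx4* with the highest FNP score, and an SE fragment that *Alx4* contacted in every library.
Alx1 bait, chr10:103026354-103026503: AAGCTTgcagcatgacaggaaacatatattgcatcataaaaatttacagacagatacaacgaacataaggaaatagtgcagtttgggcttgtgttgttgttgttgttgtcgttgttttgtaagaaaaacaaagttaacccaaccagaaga
Alx4 bait, chr2:93637426-93637575: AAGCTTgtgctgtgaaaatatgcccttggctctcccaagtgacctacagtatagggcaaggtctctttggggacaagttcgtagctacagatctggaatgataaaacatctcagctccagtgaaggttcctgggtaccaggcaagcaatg
Alx1 SE4 fragment, chr10:103113206-103113355: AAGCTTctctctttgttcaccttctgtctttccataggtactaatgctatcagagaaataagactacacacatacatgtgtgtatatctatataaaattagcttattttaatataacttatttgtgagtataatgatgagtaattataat
Alx1 SE2 fragment, chr10:102865732-102865881: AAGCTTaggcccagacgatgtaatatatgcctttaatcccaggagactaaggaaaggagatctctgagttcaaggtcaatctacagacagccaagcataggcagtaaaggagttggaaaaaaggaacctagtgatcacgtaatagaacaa
Alx4 SE4 fragment, chr2:93618570-93618719: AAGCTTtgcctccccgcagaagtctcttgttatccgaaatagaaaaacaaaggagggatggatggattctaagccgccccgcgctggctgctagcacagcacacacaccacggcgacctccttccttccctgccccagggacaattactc
Alx4 SE2 fragment, chr2:93479172-93479321: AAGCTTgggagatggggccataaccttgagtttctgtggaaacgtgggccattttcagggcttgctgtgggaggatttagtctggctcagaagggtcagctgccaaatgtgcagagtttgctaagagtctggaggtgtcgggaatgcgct
Paired-class homeodomains bind as dimers to a palindrome of the half-sites TAAT and ATTA, in this order and with 3 bases of any kind between them, which reads the same on both strands. Neither bait held it, nor did any of the 4 SE fragments with the highest FNP scores of each gene. Of all fragments of chromosomes 2 and 10 within 10% of their lengths, between 2.49% and 28.9% held it. The absence says only that these letters are not in these fragments.

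Both promoters had their highest summed contact score in FNP. The summed score adds the scores of all listed partners within 1 Mb. For *Alx1* it was 150.43 and 247.62 in FNP, 61.44 and 84.55 in Mx, 55.21 and 55.43 in Md, 18.38 and 16.73 in PA2, 22.01 and 10.69 in knockout PA2, 14.2 and 9.98 in E12.5 pinna, and 13.41 and 44.72 in E14.5 pinna. Both FNP libraries were above every other library, and Mx and Md were above PA2, knockout PA2 and pinna without overlap, with 55.21 in the lowest Md library against 44.72 in E14.5 pinna replicate 2. Among the remaining 4 conditions PA2 was above E12.5 pinna, and the other pairs of conditions overlapped. The mean (± SD, n = 2) fell from 199 ± 68.7 in FNP to 73.0 ± 16.3 in Mx, 55.3 ± 0.156 in Md and 17.6 ± 1.17 in PA2.

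For *Alx4* the summed score was 405.02 and 286.51 in FNP, 251.42 and 203.4 in Mx, 144.58 and 163.02 in Md, 41.16 and 102.84 in PA2, 72.89 and 72.78 in knockout PA2, 82.54 and 66.38 in E12.5 pinna, and 67.05 and 65.5 in E14.5 pinna. FNP, Mx and Md were ordered without overlap, and all 3 were above the other conditions, among which knockout PA2 was above E14.5 pinna and the other pairs of conditions overlapped. The means were 346 ± 83.8 in FNP, 227 ± 34.0 in Mx, 154 ± 13 in Md and 72.0 ± 43.6 in PA2 (SD, n = 2).

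**Figure D1:**
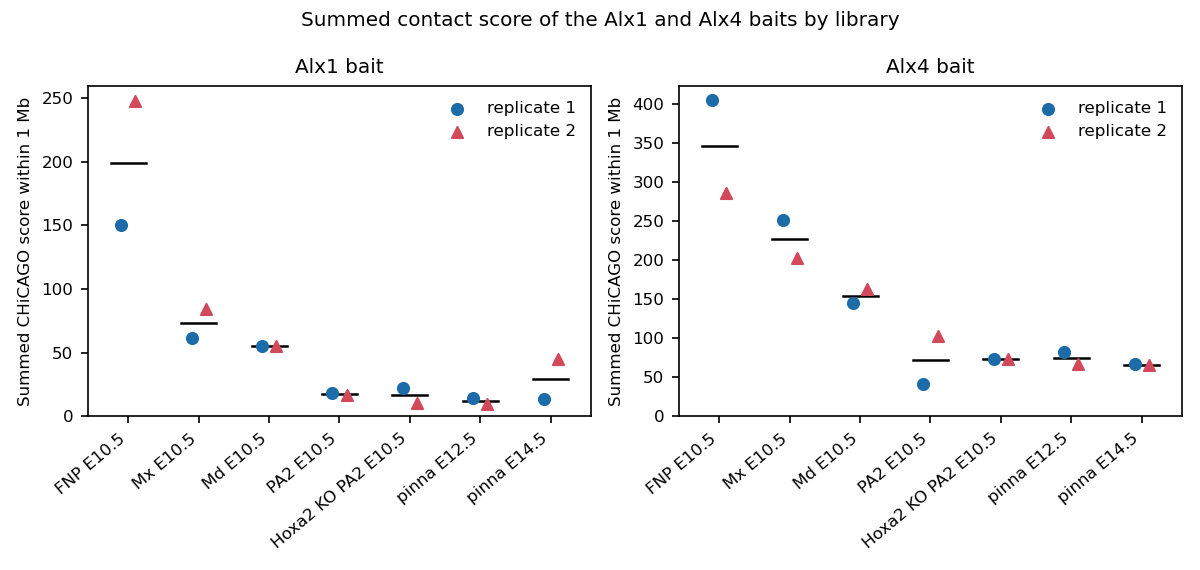
Summed CHiCAGO score of all partners within 1 Mb (vertical axis) of the Alx1 bait (left) and the Alx4 bait (right) in the 7 conditions. Points are libraries, circles replicate 1 and triangles replicate 2, and bars are means of 2. Alx1 falls from a mean of 199 in FNP to 17.6 in PA2, and Alx4 from 346 to 72.0.

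The first comparison set FNP and Mx, the upper face, against Md and PA2, the lower jaw and second arch. *Alx1* averaged 136 ± 83.4 (SD, n = 4) against 36.4 ± 21.8 (n = 4), a ratio of 3.73 (two-sided exact permutation test p = 0.0286). *Alx4* averaged 287 ± 86.0 against 113 ± 54.0 (n = 4 each), a ratio of 2.54 (exact permutation p = 0.0286). This is the smallest p that 4 against 4 libraries allow, and in both genes the groups did not overlap. Without FNP replicate 2 the difference for *Alx1* fell from 99.6 to 62.4. The *Alx1* difference of 99.6 no longer passed when only scores of 10 or more entered (41.7, exact permutation test, p = 0.171). Nor did it when partners were counted in place of summed (11.2 partners, exact permutation p = 0.0571). In both genes the difference missed 0.05 without any 1 of the Md or PA2 libraries, Md replicate 1 included (exact permutation p of 0.114 for *Alx1* and 0.0571 for *Alx4*). The groups still did not overlap there. With groups of unequal size, other splits can give a larger difference in means, so nothing is read from the p-values without an Md or PA2 library.

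FNP alone against the 6 libraries of Mx, Md and PA2 gave 199 against 48.6 for *Alx1*, a ratio of 4.09, and 346 against 151 for *Alx4*, a ratio of 2.29. Both differences had an exact permutation p of 0.0357, the smallest that 2 against 6 libraries allow. Without either FNP library the smallest possible exact permutation p is 0.143, so neither difference could pass (0.143 for *Alx1* either way, and 0.286 and 0.143 for *Alx4* without FNP replicate 1 and FNP replicate 2). Without fragments nearer than 30 kb the *Alx4* difference was 138 (exact permutation p = 0.0714). When every list was cut to its 113670 highest same-chromosome scores the differences were 143 for *Alx1* and 184 for *Alx4* (exact permutation p = 0.0357 for both).

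At the scale of all promoters, neither difference passed adjustment. On log2 of the summed score plus 5, centred in each library, *Alx1* was higher in FNP and Mx than in Md and PA2 by 1.73 ± 0.41 (SE; limma adjusted p = 0.235) and *Alx4* by 1.41 ± 0.32 (limma adjusted p = 0.201), while the median of the 20082 baits tested was -0.003. No bait passed in either direction (0% called), and 7.43% had an unadjusted p under 0.05. Against Mx, Md and PA2, FNP was higher by 2.09 ± 0.46 for *Alx1* (limma adjusted p = 0.246) and 1.35 ± 0.44 for *Alx4* (limma adjusted p = 0.511), again with 0% of baits called. Across the alternative settings and left-out libraries the adjusted p in the first comparison ranged from 0.0889 to 0.586 for *Alx1* and from 0.0777 to 0.557 for *Alx4*.

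As a place among all 22171 baits, the *Alx4* bait had a higher summed score than 99.2% and 97.6% of them in FNP, 96.9% and 95.3% in Mx, and 93.0% and 92.7% in Md. In PA2 the shares were 69.6% and 87.6%. The *Alx1* bait was above 92.9% and 96.7% of baits in FNP, and above 50.4% and 48.8% in PA2, next to the middle of all baits.

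Most partners of *Alx1* within 1 Mb that were listed in 2 or more libraries lay upstream in *Lrriq1*, downstream at and beside an SE, or at and near the *Rassf9* promoter. Farther out, chr10:102454342-102455524, 573 kb downstream, scored 5.48 and 6.37 in FNP and 5.62 in Mx replicate 2. SEs are numbered here by position, from the SE list of the study, which was called on H3K27ac of E10.5 cells. The copy used here is shortened to its first 2000 entries, but it is sorted by position and ends after the chromosomes of both genes. *Alx1* has 4 SEs within 1 Mb. SE1 (chr10:102592823-102618446) and SE2 (chr10:102864181-102882430) are intergenic and lie downstream of the gene, SE3 (chr10:102976991-103001200) overlaps an exon of *Alx1* in the annotation, and SE4 (chr10:103113102-103115640) is upstream, within an intron of *Lrriq1*.

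The fragment with SE4, chr10:103113207-103115947, 86.4 kb upstream, scored 19.82 and 25.09 in FNP and 8.32 and 6.48 in Mx. It was listed in no library of Md, PA2, knockout PA2 or pinna. FNP was thus highest, Mx intermediate, and the other 10 libraries at the floor. Its difference between FNP and Mx on the one side and Md and PA2 on the other was 3.24 ± 0.60 on the asinh scale (limma adjusted p = 0.535 over all pairs). Toward and into the further part of *Lrriq1*, up to 123 kb from the bait, FNP replicate 2 listed most of the partners. The fragment chr10:103116164-103117155 scored 6.00 and 14.67 in FNP and 8.00 in Mx replicate 2, and chr10:103138544-103150433, which holds a TSS of *Lrriq1*, scored 5.62 and 10.38 in FNP and 5.81 in Mx replicate 2. The summed score upstream of *Alx1* was 58.95 and 122.64 in FNP, 19.0 and 20.29 in Mx, 5.09 and 0 in Md, and 0 in both PA2 libraries. In pinna it was 0 in all 4 libraries, and in knockout PA2 it was 6.36 and 0, the former from 1 fragment 339 kb away.

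Downstream, the fragment chr10:102865733-102867422 in SE2, 162 kb from the bait, scored 12.31 and 11.42 in FNP and was listed in no other library. Its neighbour chr10:102867552-102868169 scored 7.19 and 16.91 in FNP, 8.10 in Mx replicate 2, and 5.08 and 7.02 in Md. Toward the *Alx1* side of SE2, chr10:102879178-102881736 scored higher in Mx (9.50 and 14.34) than in FNP (5.44 and 8.93), and was also listed in Md replicate 2 (7.11) and PA2 replicate 2 (5.11). The order of the conditions therefore differed between fragments of the same SE. The adjoining fragment chr10:102878285-102879177 was listed in pinna, at 5.93 in E12.5 replicate 1 and 11.22 in E14.5 replicate 2, close to the 10.81 and 10.54 of FNP, and it was at 0 in the other pinna replicate of each stage.

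*Rassf9*, which encodes a Ras-association domain protein, holds the partner that was shared across the conditions. Its promoter fragment, chr10:102508404-102512958, lies 518 kb downstream of *Alx1* and was itself a bait. The pair scored 17.61 and 15.60 in FNP, 19.71 and 7.97 in Mx, 20.79 and 19.76 in Md, 13.05 and 11.62 in PA2, 5.20 and 0 in knockout PA2, 8.27 and 9.98 in E12.5 pinna, and 7.59 and 12.07 in E14.5 pinna. It was listed in 13 of 14 libraries, and both Md libraries were above both FNP libraries. It was the highest *Alx1* score within 1 Mb in both libraries of Md, PA2 and both pinna stages, which the SE contacts were not. The promoter of *Nts*, the neurotensin gene, 538 kb away, was listed at 5.91, 5.33 and 5.15 in single libraries of Md, PA2 and knockout PA2.

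**Figure D2:**
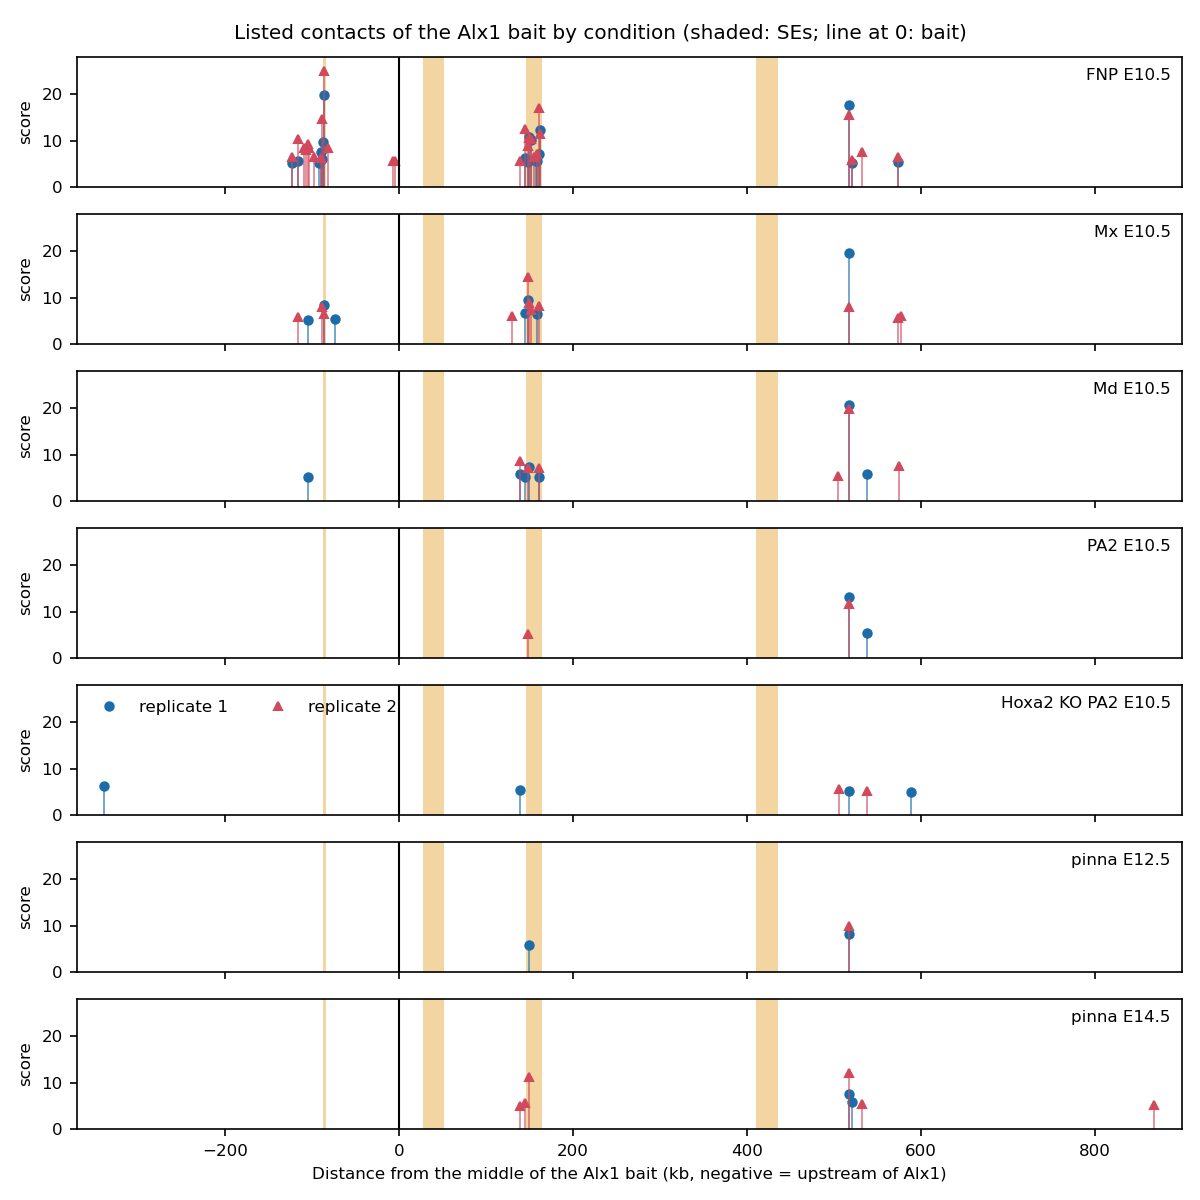
CHiCAGO score of each listed Alx1 partner (vertical axis) by distance from the middle of the bait in kb (horizontal axis, negative upstream), 1 panel per condition, circles for replicate 1, triangles for replicate 2 and shaded bands for SEs. The block near 86.4 kb upstream is seen in FNP and Mx, the block near 150 kb downstream is densest in FNP, and the contact at 518 kb downstream is in every panel.

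The contacts with a whole SE were expressed as interaction strength, which averages the scores of the fragments overlapping it, unlisted ones included. For *Alx1* SE4 it was 9.91 and 16.8 in FNP, 4.16 and 3.24 in Mx and 0 in the other 10 libraries. FNP and Mx averaged 8.52 ± 6.23 and Md and PA2 0 (n = 4 each, exact permutation p = 0.0286). *Alx1* SE4 was unlisted in every Md and PA2 library, so it was tested only through FNP and Mx. Its groups could not overlap, and nothing is read from its p. For *Alx1* SE2 it was 5.26 and 7.01 in FNP, 1.89 and 3.23 in Mx, 1.47 and 1.18 in Md, and 0 and 0.426 in PA2, with means of 4.35 ± 2.25 and 0.768 ± 0.675 (n = 4 each, exact permutation p = 0.0286). In *Alx1* SE2 the groups did not overlap. Both SEs missed 0.05 without any 1 of the Md or PA2 libraries. As for the summed scores, the groups stayed apart and were of unequal size, so nothing is read from that. With scores of 10 or more only, the p-values of SE4 and SE2 rose to 0.429 and 0.143 (exact permutation tests, n = 4 each). *Alx1* SE1 and *Alx1* SE3, the SE nearest to the promoter at 27.0 kb, had no listed contact with the bait in any library.

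*Alx4* lies among 7 SEs within 1 Mb, and its partners listed in 2 or more libraries lay between 179 kb upstream and 166 kb downstream. Upstream, SE1 (chr2:93255714-93304197) lies in *Tspan18*, SE2 (chr2:93481593-93538895) and SE4 (chr2:93615748-93625438) are intergenic, and SE3 (chr2:93552812-93600027) overlaps the gene model *Gm10803*. Downstream, SE5 (chr2:93645844-93648197) is in an intron of *Alx4*, SE6 (chr2:93662245-93697406) overlaps exons of *Alx4* or *Ext2*, and SE7 (chr2:93729132-93792012) overlaps *Ext2*, which encodes a glycosyltransferase of heparan sulphate synthesis.

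Contacts at the far end of SE2 and just beyond it were listed in most or all libraries, while other fragments of SE2 were listed in as few as 1. The fragment chr2:93476408-93479172, 163 kb upstream and just outside SE2, scored 21.06 and 17.11 in FNP, 16.65 and 12.08 in Mx, 8.05 and 7.11 in Md, 11.07 and 6.75 in PA2, and between 0 and 8.24 in the knockout and pinna libraries. FNP and Mx were above all other libraries. Its difference against Md and PA2 was 0.70 ± 0.18 on the asinh scale (limma adjusted p = 0.535). The next fragment, chr2:93479173-93489828 within SE2, was listed in all 14 libraries, at 12.79 and 13.71 in FNP, 12.63 and 12.39 in Mx, 8.65 and 9.46 in Md, 8.45 and 11.09 in PA2, 5.21 and 8.33 in knockout PA2, 8.60 and 9.90 in E12.5 pinna, and 9.51 and 7.25 in E14.5 pinna. FNP and Mx were again highest, by a smaller margin (0.32 ± 0.16, limma adjusted p = 0.535). The fragment chr2:93489829-93492603 was also listed in all 14, from 5.25 in PA2 replicate 1 to 13.03 in FNP replicate 1, and its knockout PA2 score of 10.77 in replicate 1 was above FNP replicate 2 (6.87). Further into SE2, chr2:93521190-93522993, 118 kb upstream, was listed in 13 libraries at 5.44 to 10.13, with PA2 replicate 1 at 0. Downstream, chr2:93777298-93779654 in SE7, 138 kb away, scored 6.84 and 5.06 in FNP, 6.20 and 9.23 in Mx, 0 and 6.75 in Md, and 5.39 and 7.96 in PA2, with the conditions overlapping.

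Contacts in SE4, close to the promoter, were listed in E10.5 wild-type cells and in neither knockout PA2 nor pinna. In SE4, chr2:93618571-93620791, 20.7 kb upstream, scored 13.35 and 11.62 in FNP, 7.47 and 7.34 in Mx, 7.30 and 0 in Md, and 5.46 and 0 in PA2. Beside it chr2:93617313-93618570 scored 11.99 and 10.55 in FNP, 8.14 and 8.52 in Mx, 5.10 and 6.79 in Md, and 0 and 5.17 in PA2. Both fragments were at 0 in all 6 knockout and pinna libraries. The fragments chr2:93615889-93617312, chr2:93622440-93623966 and chr2:93623967-93625622 were listed in both FNP libraries and in no other, at 5.10 to 8.88. Some fragments flanking SE4 were listed in knockout PA2. On the promoter side chr2:93625623-93629525 scored 8.05 and 7.10 in FNP, 5.10 in Mx replicate 1 and 5.13 and 5.49 in knockout PA2. On the far side chr2:93600774-93607590 scored 7.94 and 5.62 in FNP, 5.69 and 5.34 in Mx, and 5.48 and 5.94 in knockout PA2. It was also listed in Md replicate 2 (6.29) and E12.5 pinna replicate 1 (5.42). Both fragments were at 0 in both wild-type PA2 libraries. Nearer to SE4 on the far side, chr2:93607656-93611282 was listed in FNP replicate 2 only (5.04). All 7 fragments of SE4 were listed in each FNP library, against 4 and 2 in Mx, 2 and 1 in Md, and 1 in each PA2 library.

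**Figure D3:**
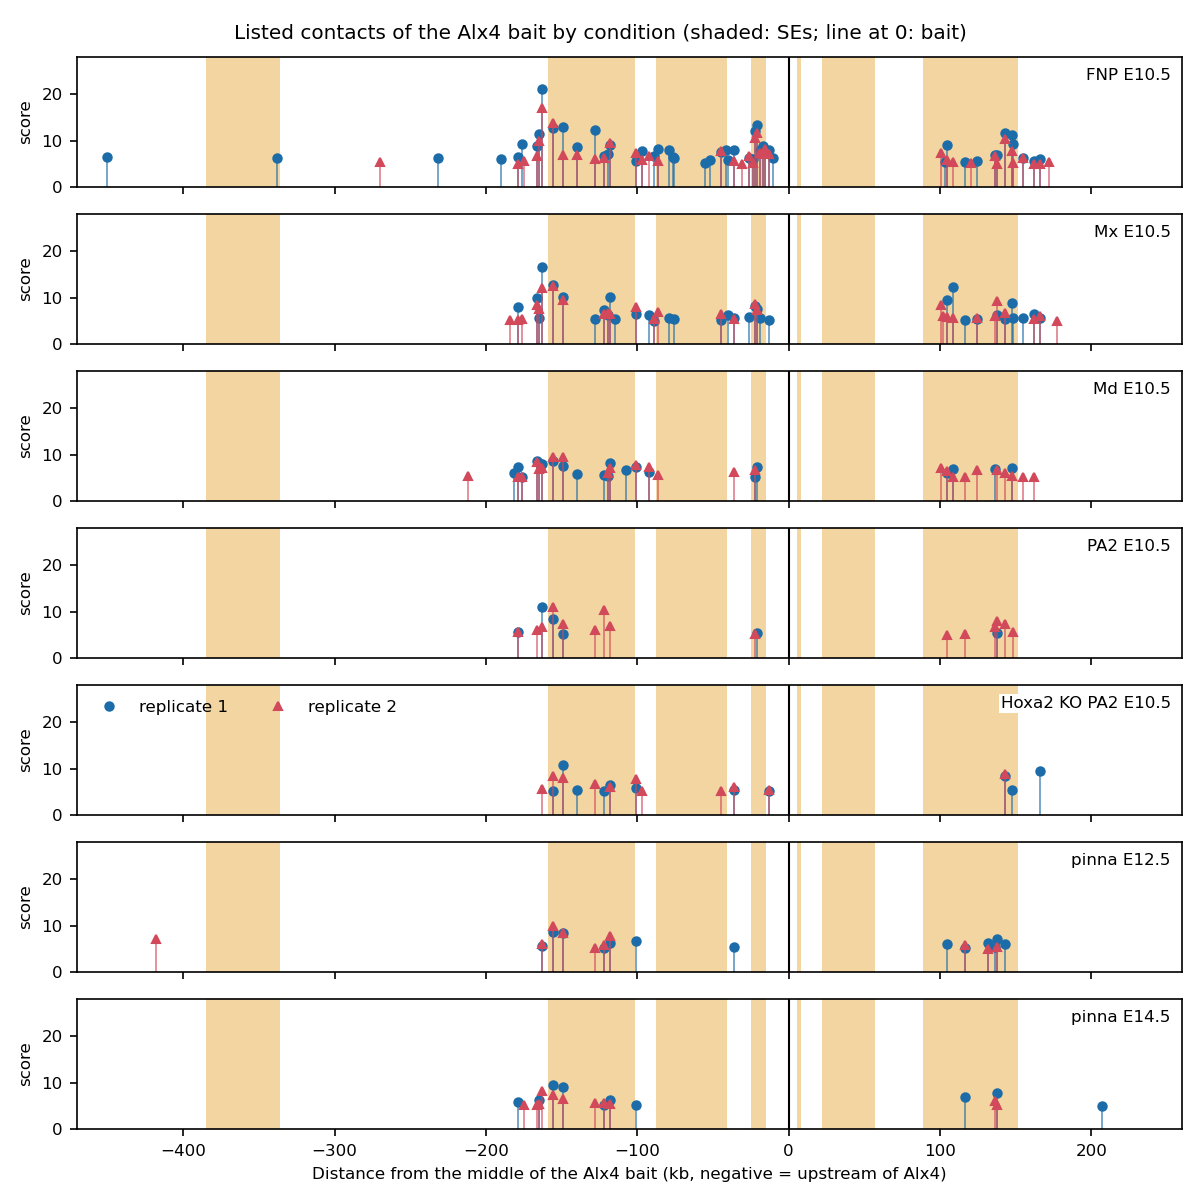
CHiCAGO score of each listed Alx4 partner within 1 Mb (vertical axis) by distance from the middle of the bait in kb (horizontal axis, negative upstream), 1 panel per condition, circles for replicate 1, triangles for replicate 2 and shaded bands for SEs. The contacts 149 to 163 kb upstream are in every panel, and those about 20 kb upstream are dense in FNP and missing from the knockout and pinna panels.

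In interaction strength, *Alx4* SE4 gave 8.85 and 8.07 in FNP, 3.84 and 2.27 in Mx, 1.77 and 0.97 in Md, and 0.78 and 0.739 in PA2. The 4 conditions did not overlap, and FNP and Mx averaged 5.76 ± 3.20 against 1.06 ± 0.482 (n = 4 each, exact permutation p = 0.0286). *Alx4* SE3 averaged 1.37 ± 1.14 against 0.0694 ± 0.139 (n = 4 each, exact permutation p = 0.0286), without overlap. Its strength was 3.05 and 0.66 in FNP, 1.12 and 0.673 in Mx, 0 and 0.277 in Md and 0 in both PA2 libraries. The value of Md replicate 2 came from 1 listed fragment, so Md and PA2 were at or near the floor. Without FNP replicate 1 the *Alx4* SE3 difference fell from 1.31 to 0.748. As for *Alx1*, neither *Alx4* SE4 nor *Alx4* SE3 passed without any 1 of the Md or PA2 libraries. The groups again stayed apart and were of unequal size, so nothing is read from that. For *Alx4* SE2 the means were 5.57 ± 0.985 and 3.41 ± 1.58, and for *Alx4* SE7 2.82 ± 0.425 and 1.35 ± 0.884 (n = 4 each, exact permutation p = 0.0571 for either), with overlap through Md replicate 1 at SE2 and Md replicate 2 at SE7. With scores of 10 or more only, the p-value was 0.429 for *Alx4* SE4 and 1 for *Alx4* SE3, which held no such score (exact permutation tests, n = 4 each). *Alx4* SE1 was listed with the *Alx4* bait in FNP replicate 1 only (0.481). SE5 and SE6, the SEs within and just behind the gene, had no listed contact with that bait. No adjacent pair of fragments was listed in any table, and SE5 is covered by 1 fragment.

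**Figure D4:**
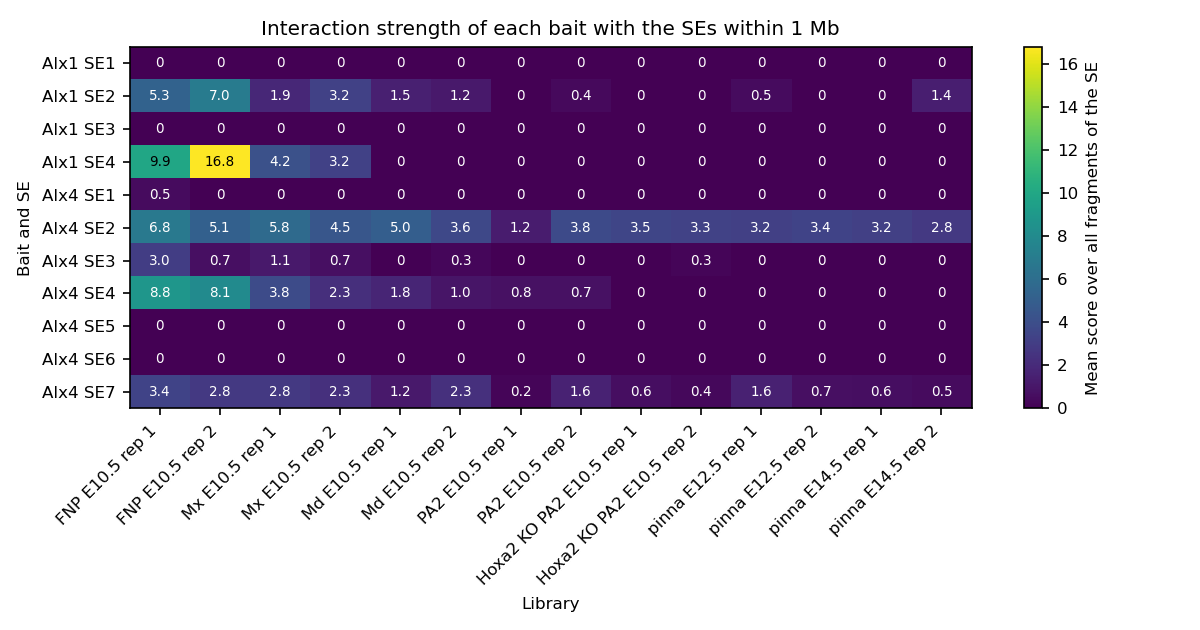
Interaction strength (colour and printed value, mean score over all fragments of the SE) of the Alx1 and Alx4 baits with each SE within 1 Mb (rows) in the 14 libraries (columns). Alx1 SE4 is above 0 in the 4 FNP and Mx libraries only, and Alx4 SE2 is above 0 in all 14.

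Other promoters were also listed with *Alx4*. *Cd82*, which encodes a tetraspanin, has its promoter fragment 179 kb upstream (chr2:93459989-93463296). The pair scored 6.49 and 5.01 in FNP, 8.03 and 5.22 in Mx, 7.33 and 5.21 in Md, 5.54 and 5.65 in PA2, and 5.86 in E14.5 pinna replicate 1, and was not listed in knockout PA2 or E12.5 pinna. It was thus of like size in all 8 wild-type E10.5 libraries. It was the only other bait listed with *Alx4* in 2 or more libraries. A fragment that is no bait but holds TSSs of *Ext2* and Gm13818, chr2:93788998-93801265 in SE7, 155 kb downstream, scored 6.22 and 6.28 in FNP, 5.62 in Mx replicate 1 and 5.16 in Md replicate 2. The highest *Alx1* score in any library, 26.66, was beyond 1 Mb, with the bait of 1700017N19Rik and 4930430F08Rik 2438 kb downstream. The pair scored 17.34 and 26.66 in E14.5 pinna, 6.48 in E12.5 pinna replicate 2 and 12.21 in Md replicate 2, and was at 0 in both FNP libraries. The bait of Tmtc3, 2541 kb downstream, was listed with *Alx1* at 6.69 in Md replicate 2 and 8.82 in E14.5 pinna replicate 2 only.

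Counted pair by pair over the genome, 18 of the 61 *Alx1* partners and 43 of the 75 *Alx4* partners on the same chromosome had a score in at least 2 of the 8 wild-type E10.5 libraries and were tested. Between FNP and Mx and Md and PA2, limma called no pair of either gene at an adjusted p of 0.05 and none of the 215457 pairs in all (0% higher and 0% lower). At an unadjusted p under 0.05 there were 5 *Alx1* and 10 *Alx4* pairs, all higher in FNP and Mx, and 8147 pairs genome-wide. Of these, 4 *Alx1* and 4 *Alx4* pairs were listed in no Md or PA2 library, so they passed the filter only through FNP and Mx and their direction was fixed. A fit of 7 condition means over all 14 libraries, in which the groups share 1 estimate of spread, called 9 *Alx1* and *Alx4* pairs. It called 6363 of all 215457 pairs. Pairs unlisted in Md and PA2 may be among the 9, so nothing is read from their number. Libraries did not overlap, with FNP and Mx higher, for 1 *Alx1* pair (SE4) and 6 *Alx4* pairs, against 0.995% of all pairs. The *Alx1* pair and 2 of the *Alx4* pairs were likewise unlisted in Md and PA2 and could not overlap, so nothing is read from this count.

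Between FNP and the other 3 regions, 4 *Alx1* and 4 *Alx4* pairs were called higher and none lower, where 1.25% of all pairs were called higher and 0.319% lower (limma adjusted p of 0.0177 to 0.0178). All 8 were listed in both FNP libraries and in none of the other 6, so they passed the filter only through FNP and had to differ, and nothing is read from the calls. Beside the fragment of *Alx1* SE2 and the 3 fragments of *Alx4* SE4 given above, they were chr10:102506869-102508403 (5.23 and 5.88 in FNP), chr10:103117156-103117857 (7.51 and 6.24) and chr10:103150434-103152497 (5.26 and 6.47) for *Alx1*, and chr2:93541864-93545169 (7.74 and 5.85) for *Alx4*. The first was also listed in E14.5 pinna replicate 1 (5.82) and the last in knockout PA2 replicate 2 (5.16). Among pairs listed in 4 or more of the 8 libraries, none of the 36 tested for *Alx1* and *Alx4* was called. FNP did not overlap the others, and was higher, in 7 *Alx1* and 17 *Alx4* pairs, against 3.89% of all pairs. The 8 called pairs are among these and could not overlap, so nothing is read from this count either.

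Other promoters were set against the same SEs. The bait of the gene model *Gm25376*, chr10:103117858-103123805, lies just beyond *Alx1* SE4. Its strength with *Alx1* SE2 was 3.40 and 4.85 in FNP, 2.53 and 1.84 in Mx, 0.568 and 1.37 in Md and 0 in both PA2 libraries, and was 0.973 or less in the other 6. The surroundings of the upstream and downstream *Alx1* SEs were thus also listed with each other, with FNP and Mx above the rest. The *Rassf9* bait was listed with *Alx1* SE4 in the 4 FNP and Mx libraries (3.35, 3.88, 2.63 and 4.52) and in no other, so the contact of SE4 in these libraries was not particular to the *Alx1* bait. *Nts* reached 1.96 with SE2 in Mx replicate 1 and 3.15 with SE4 in FNP replicate 2, where alone the latter was listed, and the annotated promoter of *Lrriq1* was listed with SE2 in 2 libraries. Near *Alx4*, the *Cd82* bait had a strength with SE7 of 2.04 to 5.40 in all 14 libraries, highest in FNP. It was also listed with *Alx4* SE6 in 10 libraries. With *Alx4* SE5 it was listed in FNP replicate 1 (5.63), PA2 replicate 1 (5.98) and E14.5 pinna replicate 2 (6.91). The *Gm10803* bait was listed with *Alx4* SE4 in the 4 FNP and Mx libraries (1.69, 3.65, 1.57 and 1.62) and in no other, and the *Ext2* bait with *Alx4* SE2 in 12 libraries, highest in Md (2.32 and 2.36).

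The question of whether *Hoxa2* bears on these contacts was addressed with knockout against wild-type PA2. The summed score of the *Hoxa2* bait was 344.82 and 398.49 in PA2 and 283.09 and 233.02 in knockout PA2. This is a contact measure and does not check the deletion. For *Alx1* the difference between knockout and wild type was -1.20 (16.4 ± 8.00 against 17.6 ± 1.17) and for *Alx4* 0.835 (72.8 ± 0.0778 against 72.0 ± 43.6), with the libraries overlapping (n = 2 each, exact permutation p = 1 for both). Neither direction was stable, since the difference was 4.46 for *Alx1* without knockout replicate 2 and -30.0 for *Alx4* without PA2 replicate 1. With 2 against 2 libraries the smallest p is 0.333, so no difference could pass. On the log2 scale the differences were -0.05 ± 0.47 for *Alx1* (limma adjusted p = 0.972) and 0.23 ± 0.45 for *Alx4* (limma adjusted p = 0.84), and 0% of the 18892 baits were called in either direction.

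From E10.5 PA2 to the pinna, which forms in part from PA2, neither promoter had a difference larger than the spread between libraries. *Alx1* averaged 20.6 ± 16.2 in the 4 pinna libraries against 17.6 ± 1.17 in PA2, and *Alx4* 70.4 ± 8.14 against 72.0 ± 43.6 (n = 4 and 2, exact permutation p = 1 for both, smallest possible 0.0667). The *Alx1* mean rests on E14.5 pinna replicate 2 (44.72), since the other 3 pinna libraries were below both PA2 libraries, and without it the difference turned from 3.02 to -5.02. The *Alx4* difference turned from -1.63 to 29.2 without PA2 replicate 2. On the log2 scale the differences were 0.01 ± 0.58 for *Alx1* (limma adjusted p = 0.997) and 0.09 ± 0.38 for *Alx4* (limma adjusted p = 0.94), where 1.11% of the 19802 baits were called higher and 0.444% lower.

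Of 15 paired-class homeobox genes 14 had a tested bait. None passed adjustment between FNP and Mx and Md and PA2, and their median log2 difference was 0.14, against -0.003 for all baits. At an unadjusted p under 0.05, 2 were higher (*Pax7* and *Isx*) and 2 lower (*Pitx1* and *Gsc*), against 7.43% of all baits in either direction. *Isx* had a summed score of 0 in every Md and PA2 library, so its direction was fixed and nothing is read from it. *Pax7*, which marks neural crest and muscle progenitors, had summed scores of 18.83 and 80.91 in FNP, 11.21 and 5.45 in Mx, 0 in both Md libraries, and 5.19 and 5.08 in PA2. Of the 14 baits of frontonasal and maxillary genes none passed, 2 were higher (*Pax7* and *Tfap2b*) and 1 lower (*Tfap2a*) at an unadjusted p under 0.05, with a median of -0.15, against the same 7.43% and -0.003 over all baits. Of the 13 baits of mandibular and second-arch genes none passed, 2 were higher (a *Meis1* bait and *Meis2*) and 4 lower (Dlx3, *Gsc*, *Hand2* and Nkx3-2) at an unadjusted p under 0.05, with a median of -0.22, against the same background. Among the latter, *Hand2*, a gene of the ventral arches, had summed scores of 353.61 and 319.86 in FNP, 432.27 and 413.36 in Mx, 746.32 and 911.37 in Md, and 647.11 and 676.71 in PA2 (log2 difference -0.97 ± 0.16, limma adjusted p = 0.106). Md and PA2 were thus above FNP and Mx without overlap, the reverse of *Alx1* and *Alx4*. Between FNP and the other regions, and between knockout and wild-type PA2, none of the 3 lists held a called bait. From PA2 to pinna, where 1.11% of all baits were called higher and 0.444% lower, 1 paired-class bait was lower (Uncx) and 2 mandibular and second-arch baits were higher (a *Meis1* bait and *Meis2*), with limma adjusted p of 0.0255, 0.00812 and 0.000456.

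The 2 Alx baits followed each other over the 14 libraries (r = 0.86 on the centred log2 scale), as a description across libraries that share their condition and depth. *Alx4* was the second most similar of all coding promoters to *Alx1*, after *Fev* (r = 0.87), out of 15011 with a listed pair within 1 Mb in at least 7 libraries. *Cops8* (r = 0.90) was the most similar to *Alx4*. *Hoxb2* was among the 5 most similar to both (r = 0.85 with *Alx1* and 0.88 with *Alx4*), with summed scores of 218.44 and 282.23 in FNP, 177.15 and 193.93 in Mx, 232.97 and 144.59 in Md, 48.82 and 80.51 in PA2, and 21.2 to 60 in the other 6.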

How the data were processed

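PCHi-C libraries were made from CNCCs with HindIII. The authors aligned the reads with HiCUP (build GRCm38/mm10), scored interactions by CHiCAGO and deposited, per library, bait fragment, other fragment and score. The score is a weighted negative log p against a background fitted within the library, so it rises with depth. The authors set a minimum fragment length of 150 bp. The submitters' processing notes name bcl2fastq 2.17. The paper's methods describe the 2 libraries of each PCHi-C condition as biological replicates.

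Members and lists were chosen with earlier results of these data known. Fragments came from a HindIII digest of GRCm38, TSSs from GENCODE vM21, and SE positions from a shortened copy (2000 entries) of the study's list. Unlisted pairs were 0. Single values were compared by two-sided exact permutation tests of the difference in means, 8 for summed scores and 7 for SEs, unadjusted. Pairs with a score in at least 2 of 8 libraries were fitted on asinh of the score, and baits on log2 of the summed score plus 5, with limma (lmFit, eBayes with trend; Benjamini-Hochberg). R 4.3.3, limma 3.58.1 and Python 3.11.15 were used.

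Named contacts were all SEs within 1 Mb, the 5 highest partners beyond 30 kb, other baits listed in 2 or more libraries, and called pairs. The *Alx4* SE4 fragments listed outside FNP and those flanking it, the remaining *Lrriq1* fragments, the partners at 573 kb (*Alx1*) and 155 kb (*Alx4*) and the list genes with values were picked after their values were seen. The limma steps were tested on simulated data: without any difference, the pair fit of FNP against the rest still called pairs listed in the 2 FNP libraries only, so those calls are not relied on. Same-numbered replicates deviated together only weakly. The correlations were 0.00972 to 0.131, with 20 of 21 under 0.1 and the highest between E12.5 and E14.5 pinna. The numbers were therefore not taken to pair libraries.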

Additional observations from a re-analysis of the deposited data

Results flagged for a closer look

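The values of a group of 4 to 10 libraries were checked for a highest or lowest library far from the others by Dixon's test at the 95% level. Chance flags about 1 in 20 groups, 20 groups were tested and 4 were set apart. For *Alx1*, the summed score of E14.5 pinna replicate 2 (44.72) lay above the other 3 pinna libraries, of which the nearest was at 14.2. For *Alx4*, E12.5 pinna replicate 1 (82.54) lay above the other pinna libraries (nearest 67.05). The strength of *Alx4* with SE1 was 0.481 in FNP replicate 1 and 0 in the other 3 libraries of FNP and Mx, and its strength with SE3 was 0.277 in Md replicate 2 and 0 in the other 3 libraries of Md and PA2. Each of these strengths comes from a single listed fragment. With all other libraries of the group at 0 the test is bound to flag such a value, so the rate of 1 in 20 does not hold for strengths. The cause of these 4 values was not tested.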

How the results depend on the processing

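The scores carry no read depth, a pair under the list's threshold is at 0, and 2 libraries a condition limit every comparison. The differences in summed score between FNP and Mx and Md and PA2, and between FNP and the other regions, kept their direction under every alternative and left-out library. Leaving out 1 library in turn gave 62.4 to 124 (*Alx1*) and 134 to 201 (*Alx4*) in the first, and 102 to 199 and 135 to 254 in the second. With scores of 10 or more the *Alx1* difference in the first was 41.7, as a number of fragments 11.2, and without fragments within 30 kb the *Alx4* difference in the second was 138, all 3 past 0.05 no longer. For knockout against wild-type PA2, leaving out libraries gave -6.86 to 4.46 (*Alx1*, 4.46 without knockout replicate 2) and -30.0 to 31.7 (*Alx4*, -30.0 without PA2 replicate 1). The sign also turned for *Alx1* as fragments (1.0), with equal numbers of top pairs (4.02) and within 500 kb (3.34), and for *Alx4* with scores of 10 or more (-10.8). For pinna against PA2 the ranges were -5.02 to 6.55 (*Alx1*, -5.02 without E14.5 replicate 2) and -32.5 to 29.2 (*Alx4*, 29.2 without PA2 replicate 2), and the sign turned for *Alx1* with scores of 10 or more (-6.51) and for *Alx4* as fragments (0.5) and without 30 kb (3.68). The SE differences ranged over left-out libraries from 2.69 to 4.40 (*Alx1* SE2), 5.77 to 10.3 (*Alx1* SE4), 0 to 0.16 (*Alx4* SE1), 1.43 to 2.69 (*Alx4* SE2), 0.748 to 1.54 (*Alx4* SE3), 3.66 to 5.85 (*Alx4* SE4) and 1.1 to 1.8 (*Alx4* SE7). With scores of 10 or more, those of *Alx1* SE2 (2.28), *Alx1* SE4 (5.61), *Alx4* SE3 (0) and *Alx4* SE4 (1.70) no longer passed, nor as fragments *Alx1* SE2 (4.25) and *Alx4* SE4 (3.75). With equal numbers of top pairs *Alx4* SE2 (2.41) and *Alx4* SE7 (1.23) passed, as did *Alx4* SE7 with fragments assigned by midpoint (1.39), *Alx4* SE2 without Md replicate 1 (2.69) and *Alx4* SE7 without Md replicate 2 (1.80).

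Calls of pairs between FNP and Mx and Md and PA2 went from 0 to 6363 (9 of *Alx1* and *Alx4*) with 7 condition means and to 887 (3 of *Alx1* and *Alx4*) without the eBayes trend, and left-out libraries gave 0 to 1 (0 of *Alx1* and *Alx4*). Those of FNP against the rest went from 3389 (8) to 1837 with 7 condition means and to 23 (0) for pairs in 4 or more libraries, and left-out libraries gave 1378 to 4614 (0 to 12, with 0 without FNP replicate 1 or FNP replicate 2). Calls of baits with 7 condition means were 2, 1, 195 and 728 in the 4 comparisons, against 0, 0, 0 and 307. With a listed pair in all libraries they were 2, 1 and 43 in the first 3. For knockout PA2 they were 622 on fragments, and for pinna 159 with a pseudocount of 1 and 129 without centring. Left-out libraries gave 0 to 1, 0 to 6, 0 to 0 and 47 to 184 (47 without E14.5 replicate 2). The log2 difference of the *Alx1* bait ranged from 1.37 to 2.04 and 1.72 to 2.46 in the first 2 comparisons and that of *Alx4* from 0.99 to 1.63 and 1.03 to 1.58. For knockout PA2 these were -0.40 to 0.39 and -0.38 to 0.86 and for pinna -0.34 to 0.19 and -0.54 to 0.72. Their sign turned in knockout PA2 for *Alx1* on fragments (0.69), with a listed pair in all libraries (0.01), with equal numbers of top pairs (0.11) and without PA2 replicate 1 (0.01) or knockout replicate 2 (0.39), and for *Alx4* without PA2 replicate 1 (-0.38). In pinna it turned for *Alx1* with a pseudocount of 1 (-0.02), quantile normalization (-0.06), without PA2 replicate 2 (-0.02) or E14.5 replicate 2 (-0.34), and for *Alx4* with equal numbers of top pairs (-0.07) and without PA2 replicate 1 (-0.54). With the replicate number as a block, 3388 pairs were called between FNP and the rest and 277 baits between pinna and PA2, no call on *Alx1* or *Alx4* changed, and the libraries share only a number. Except where a value or the alternative's construction shows it, the cause was not tested.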
